A study of Mus musculus with 9 samples.

Results

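The genes described here make, degrade and regulate polyamines. They are Odc1, Amd1, Srm, Sms, Sat1, Azin1, Oaz1, Oaz2, Paox and Smox, chosen by name as the core enzymes and regulators of the pathway, 10 of the 54532 genes in the deposited count table. All 10 were detected in every library and passed the filter on low counts. Their messenger RNA was measured by bulk RNA sequencing of mouse prostate. KO mice were null for Srd5a2 (Srd5a2-/-), Het mice were heterozygous (Srd5a2+/-) and WT mice carried wild-type alleles; heterozygous males had been crossed with C57BL6 wild-type females, and the null males came from further breeding of the offspring. Each genotype had 3 libraries, 9 in all. Srd5a2 encodes a steroid 5-alpha-reductase, which converts testosterone into dihydrotestosterone. The sources used here do not give the age of the mice or the prostate lobes taken, nor whether each library is a separate animal, so a p-value reflects only how these samples vary, which may be technical variation. In bulk tissue, fewer cells of a type and less RNA per cell cannot be told apart.

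Putrescine, spermidine and spermine are small, positively charged molecules that bind nucleic acids, and the rodent prostate is known for making and secreting them in unusually large amounts. Odc1 makes putrescine from ornithine, Amd1 supplies the aminopropyl groups, and Srm and Sms add these groups to give spermidine and then spermine. Antizymes (Oaz1, Oaz2) send the Odc1 protein to degradation, Azin1 occupies the antizymes, and Sat1, Paox and Smox convert the longer polyamines back into shorter ones. Sbp, the spermine-binding protein, is a secretory protein of the rodent ventral prostate and is known to depend on androgen.

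Polyamines act on their own pathway through short stretches of its messenger RNAs. The antizyme messages are known to be decoded by a shift of reading frame at a stop codon, which polyamines promote. The windows below run 5′ to 3′ along the sense strand of GENCODE vM21 transcripts of Oaz1 (chromosome 10) and Oaz2 (chromosome 9), with the shift site and its stop codon in capitals. They are shown because both antizyme messages are members whose levels say nothing of this later step.
Oaz1: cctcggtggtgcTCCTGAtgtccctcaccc
Oaz2: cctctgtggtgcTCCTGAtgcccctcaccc
The 2 windows of 30 bases were identical at 28 positions. Amd1 and Mat2a, the methionine adenosyltransferase that makes the substrate of Amd1, differed widely and in parallel between libraries, as described below, and their promoter windows follow for that reason. Each holds 250 bases before and 50 bases from the annotated start, read from the RefSeq promoter table (GRCm38.p6) on the minus strand, at chr10:40302139-40302438 for Amd1 and chr6:72439507-72439806 for Mat2a. Capitals mark a TATATAA match 29 bases before the Amd1 start, a TATAAA match 32 bases before the Mat2a start and, in Amd1, an open reading frame of 21 bases that begins at base 14 of the transcript. A short upstream frame in the mammalian Amd1 leader is known to make its translation sensitive to polyamines.
Amd1: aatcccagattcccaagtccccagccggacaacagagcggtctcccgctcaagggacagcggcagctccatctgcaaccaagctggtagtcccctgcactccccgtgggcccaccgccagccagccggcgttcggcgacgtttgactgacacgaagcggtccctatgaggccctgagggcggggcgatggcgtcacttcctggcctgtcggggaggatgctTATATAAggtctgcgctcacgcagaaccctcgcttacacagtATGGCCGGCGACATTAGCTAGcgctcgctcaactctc
Mat2a: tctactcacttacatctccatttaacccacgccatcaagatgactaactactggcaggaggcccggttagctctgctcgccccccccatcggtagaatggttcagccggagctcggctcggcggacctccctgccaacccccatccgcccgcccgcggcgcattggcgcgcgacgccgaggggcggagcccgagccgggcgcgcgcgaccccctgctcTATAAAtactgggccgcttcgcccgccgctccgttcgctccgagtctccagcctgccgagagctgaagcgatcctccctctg
Promoter windows were present for 8 of the 10 genes. On either strand, TATAAA occurred in 13.6% of all 32851 windows of this length and TATATAA in 3.24%. Among the 8 genes, TATAAA occurred in Oaz1, TATATAA in Amd1 and neither in the other 6. On the same terms the androgen receptor half-site AGAACA occurred in the windows of Sat1 and Oaz2 and in 19.0% of all windows, and its inverted repeat with a spacer of 3 free bases in none of the 8 and in 0.00913% of all. The E-box CACGTG, which Myc proteins bind, occurred in 1 of the windows of Sms and in 7.15% of all. These are letter matches in 300 bases, not mapped binding sites.

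The libraries held 16233392 to 24017791 counts. Srd5a2 was low throughout, with 0.934, 0.512 and 1.15 CPM (counts scaled to a common library total) in KO libraries 1 to 3, 3.68, 5.19 and 2.37 CPM in Het libraries and 2.30, 5.50 and 8.81 CPM in WT libraries. The KO libraries were lowest without overlap, but no genotype comparison passed for this gene (KO against WT log2 fold change −2.67, SE 0.62, adjusted p 0.9996, edgeR); which part of the gene was deleted is not stated there. Pbsn, the probasin gene of secretory prostate epithelium, was present in all 9 libraries, at 4416 to 10613 CPM in KO, 2508 to 6299 CPM in Het and 8323 to 13056 CPM in WT libraries. Seminal vesicle markers, of which 7 of 8 were detected in all 9 libraries (Svs1 was at 0 in Het 1), summed to 96152 to 193598 CPM in KO, 6593 to 359170.3 CPM in Het and 31140.0 to 220967 CPM in WT libraries. The list did not move as one. Svs2, Svs5 and Pate4 were highest of the 9 libraries in Het 2, at 230595, 91518 and 25999 CPM. Svs1, Svs3a, Svs3b and Svs6 had 12.3, 14.5, 8.78 and 77.1 CPM there, against 2459, 1225, 894 and 3285 CPM in KO 1. Svs4 had 10946 CPM in Het 2 and 17803 CPM in KO 1. Skeletal muscle markers, of which 5 of 12 were detected in all 9 libraries (Myh4 and Pvalb were at 0 in 5 libraries and Tnnc2 in 9), summed to 782 to 6117 CPM in KO, 144 to 661 CPM in Het and 342 to 1382 CPM in WT libraries. In the Het libraries, WT 1 and WT 2 the sum was mostly Acta1, at 134 to 660 CPM. Myh1, Myh4, Myl1, Mylpf, Tnnt3, Tnni2, Atp2a1 and Pvalb were higher in KO 1 to 3 and WT 3 than elsewhere, without overlap. Tnnt3 had 38.1, 520, 66.0 and 50.7 CPM in these libraries and 0 to 1.03 CPM elsewhere. Acta1, Ckm and Myh2 overlapped. Sbp itself split the libraries: it had 34575, 34372 and 56195 CPM in KO libraries 1 to 3, 143989, 7.26 and 113544 CPM in Het libraries 1 to 3, and 0.994, 55578 and 16.0 CPM in WT libraries 1 to 3. It thus took 3.54 to 14.3% of the counts in 6 libraries and was under 1000 CPM in Het 2, WT 1 and WT 3.

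Per unit of gene length, the pathway was led by an antizyme and by its first enzymes. The deposited FPKM values scale fragments by gene length and by a library size. That size was 0.907 (Het 2) to 1.10 (KO 2) times the library total. On this scale, the mean level over the 9 libraries was 143 for Oaz1, 98.3 for Amd1, 71.9 for Odc1, 65.3 for Srm and 43.2 for Sat1. Lower mean levels followed, 24.2 FPKM for Oaz2, 14.3 for Azin1, 9.11 for Smox, 5.54 for Sms and 2.17 for Paox. The ranges of Oaz1 and Amd1 overlapped, as did those of Amd1 and Odc1, Odc1 and Srm, Azin1 and Smox, and Smox and Sms, so these neighbours were not separated beyond their spread. Srm lay above Sat1, Sat1 above Oaz2, Oaz2 above Azin1 and Sms above Paox in 9 of 9 libraries without overlap. FPKM divides by a fixed gene length, such as 2558 bases for Oaz1 and 6256 for Azin1, the same in every library. The order of genes and the ratios between them depend on that length, and agreement between libraries does not test it. Srm, the spermidine synthase, exceeded Sms, the spermine synthase, by 8.10 to 18.6 times in FPKM within a library.

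**Figure D1:**
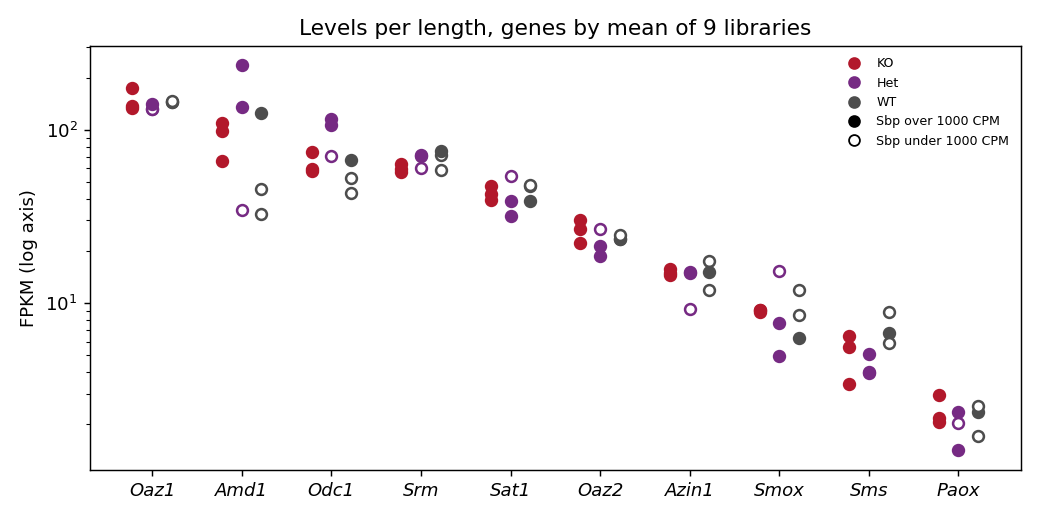
Levels per gene length (FPKM, log axis) of the 10 genes in each of the 9 libraries, coloured by genotype with KO, Het and WT from left to right within a gene; open circles are libraries with Sbp under 1000 CPM. Genes are ordered by their mean, from Oaz1 at 143 FPKM to Paox at 2.17 FPKM, and Amd1 is the gene that spreads most.

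The genes differed in how steady they were. The SD of log2 CPM over the 9 libraries was 0.14 for Oaz1 and 0.16 for Srm, lower than all but 3.52% and 5.81% of the 16836 genes tested, against a median of 0.47 over all genes. Oaz2 (0.21), Sat1 (0.24), Azin1 (0.28) and Paox (0.31) lay below that median too. Sms (0.45), Odc1 (0.45) and Smox (0.47) lay near it, and Amd1 (0.97) above it, at percentile 74.6. Highest over lowest library, Amd1 spanned 7.13 times, Odc1 2.63 times and Oaz1 1.37 times in CPM.

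No member passed the test between genotypes. In KO against WT, 0 of 10 passed edgeR's quasi-likelihood test at an adjusted p of 0.05, as did 0% of all 16836 genes, and 0 of 10 reached an unadjusted p under 0.05, against 3.57% of all genes. In Het against WT, 0 of 10 passed (0% of all genes) and 2 of 10, Odc1 and Sms, reached an unadjusted p under 0.05 (9.04% of all genes). In KO against Het, 0 of 10 passed (0% of all genes) and 1 of 10, Odc1, reached an unadjusted p under 0.05 (6.22% of all genes). DESeq2 and limma voom also called 0 of the 10 in each comparison. Over all genes DESeq2 called 14 in KO against WT, 205 in Het against WT and 169 in KO against Het, where edgeR and limma voom called 0. The median log2 fold change of the 10 genes was 0.029 in KO against WT, −0.13 in Het against WT and 0.13 in KO against Het, beside 0.0056, −0.0003 and 0.018 over all genes. These comparisons share their WT, Het or KO libraries.

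Few members separated whole groups. Odc1 was higher in all 3 Het than in all 3 WT libraries (1 of 10, against 4.7% of all genes), and Sms and Oaz1 were lower in all 3 Het than in all 3 WT libraries (2 of 10, against 8.59%). No member separated KO from WT, where 8.14% of all genes lay wholly above and 6.04% wholly below, or KO from Het, where 7.8% lay above and 4.12% below.

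**Figure D2:**
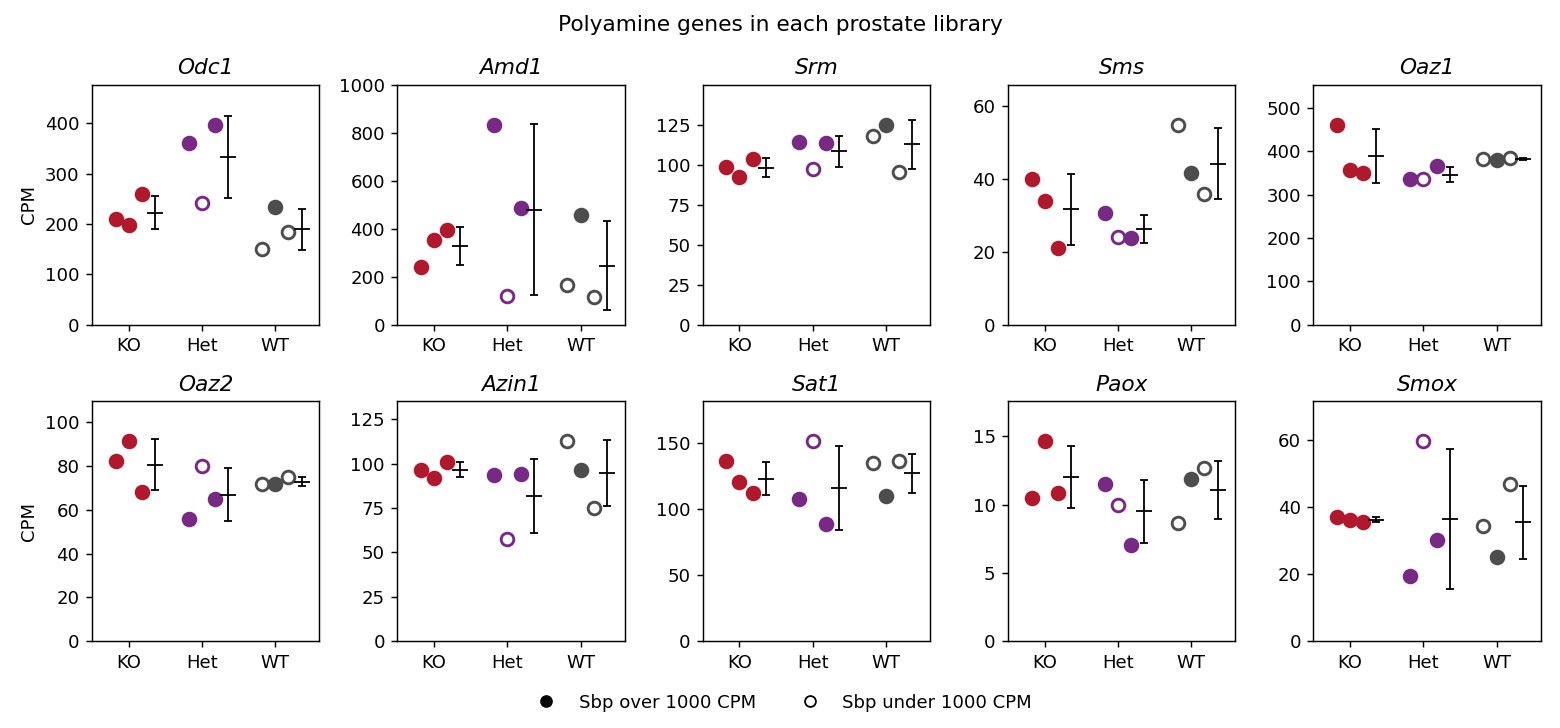
Level of each of the 10 genes (CPM, linear axis from 0) in every library, with KO, Het and WT from left to right; circles are libraries, open where Sbp was under 1000 CPM, and the bar beside each group is its mean with SD (n = 3 each). The open circles of Amd1 lie at 117 to 167 CPM, below all filled circles, while Oaz1 and Srm stay within narrow ranges.

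Odc1, ornithine decarboxylase, the first and usually limiting enzyme of the pathway (chromosome 12, bases 17544794 to 17551505, plus strand), had the clearest difference between genotypes. It was read at 210, 199 and 259 CPM in KO libraries 1 to 3, at 361, 241 and 397 CPM in Het libraries and at 151, 233 and 184 CPM in WT libraries. All 3 Het libraries lay above all 3 WT libraries, narrowly for Het 2 and WT 2, and the KO libraries overlapped both groups. Odc1 averaged 333 ± 81.7 CPM in Het and 189 ± 41.1 CPM in WT (SD, n = 3 each), a log2 fold change of 0.81 (SE 0.23, 95% interval 0.31 to 1.32, adjusted p 0.413, edgeR). Against Het, the KO libraries, at 223 ± 32.1 CPM (SD, n = 3), gave −0.58 (SE 0.22, adjusted p 0.733, edgeR), and against WT they gave 0.24 (SE 0.22, interval −0.27 to 0.74, adjusted p 0.9996, edgeR). With DESeq2 the Het against WT value was 0.84 (adjusted p 0.0573). Endothelial, macrophage and blood markers, each summed over their list, were lower in every Het library than in every KO or WT library. The 5 endothelial markers summed to 48.6 to 109 CPM in KO, 17.7 to 30.8 CPM in Het and 43.4 to 79.5 CPM in WT libraries. The 5 macrophage markers summed to 73.2 to 128 CPM in KO, 44.1 to 59.1 CPM in Het and 75.3 to 112 CPM in WT libraries, and the 4 blood markers to 42.9 to 78.7 CPM in KO, 7.62 to 20.8 CPM in Het and 45.6 to 74.2 CPM in WT libraries. Other lists overlapped: smooth muscle markers summed to 3789 to 5238 CPM in KO, 1067 to 6625 CPM in Het and 2739 to 5529 CPM in WT libraries. Het 2 and Het 3, at 6625 and 6175 CPM, were the highest of the 9 libraries for smooth muscle. Summed fibroblast, basal and proximal luminal markers of Het libraries overlapped those of WT libraries. Each of these markers was detected in all 9 libraries apart from Hba-a2, at 0 in Het 3, and their part in the Het differences of Odc1 and Sms was not tested.

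Amd1, S-adenosylmethionine decarboxylase (chromosome 10, 40287458 to 40302186, minus strand), varied most. It had 243, 354 and 396 CPM in KO libraries 1 to 3, 835, 122 and 486 CPM in Het libraries and 167, 458 and 117 CPM in WT libraries. The lowest 3 values were those of Het 2, WT 1 and WT 3, and every genotype overlapped the others. Het against WT gave a log2 fold change of 0.96 (SE 0.72, interval −0.70 to 2.62, adjusted p 0.729, edgeR), KO against WT 0.42 (SE 0.71, interval −1.23 to 2.07, adjusted p 0.9996) and KO against Het −0.54 (SE 0.71, adjusted p 0.984). Leaving out 1 library at a time, Het against WT ranged from 0.29 without Het 1 to 1.82 without WT 2, KO against WT from 0.074 without WT 3 to 1.27 without WT 2, and KO against Het from −1.02 without Het 2 to 0.12 without Het 1. The near copy Amd2 shares 86.1% of the 50-base words of the Amd1 transcript, so reads could be split between them; Amd2 held 0.802 to 1.79% of the counts of the pair.

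Srm and Sms, the aminopropyltransferases, behaved unlike Amd1. Srm (chromosome 4, 148591503 to 148594993, plus strand) stayed between 92.0 and 125 CPM, with 98.6, 92.0 and 104 CPM in KO, 114, 97.0 and 114 CPM in Het and 118, 125 and 95.2 CPM in WT libraries. The groups overlapped, and KO against WT gave −0.20 (SE 0.14, interval −0.52 to 0.12, adjusted p 0.9996, edgeR). Sms, on the X chromosome (157443855 to 157492287, minus strand), had 40.0, 33.8 and 20.9 CPM in KO, 30.6, 24.0 and 23.9 CPM in Het and 54.8, 41.6 and 35.8 CPM in WT libraries. Every Het library was below every WT library, and KO 1 lay within the WT range. Het against WT was −0.75 for Sms (SE 0.26, interval −1.33 to −0.18, adjusted p 0.457, edgeR), and KO against WT was −0.48 (SE 0.26, interval −1.05 to 0.092, adjusted p 0.9996).

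The antizymes and their inhibitor were steady. Oaz1 (chromosome 10, 80826656 to 80829290, plus strand) had 461, 356 and 350 CPM in KO, 337, 336 and 365 CPM in Het and 383, 380 and 384 CPM in WT libraries. The 3 WT values nearly coincided, above every Het value and inside the KO range. Het against WT gave −0.14 (SE 0.15, interval −0.47 to 0.18, adjusted p 0.810, edgeR) and KO against WT 0.024 (interval −0.30 to 0.35, adjusted p 0.9996). Oaz2, a second broadly expressed antizyme (chromosome 9, 65668001 to 65690300, plus strand), had 82.5, 91.3 and 68.2 CPM in KO, 56.0, 80.2 and 64.8 CPM in Het and 71.9, 71.7 and 75.3 CPM in WT libraries. The WT values were again close together and the other groups spread to both sides of them. KO against Het gave 0.27 for Oaz2 (SE 0.17, interval −0.11 to 0.64, adjusted p 0.927, edgeR).

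Azin1, the antizyme inhibitor, an Odc1-like protein without its enzymatic activity (chromosome 15, 38487427 to 38519266, minus strand), had 96.7, 92.2 and 101 CPM in KO, 93.9, 57.6 and 94.0 CPM in Het and 113, 96.7 and 75.2 CPM in WT libraries. Het 2 stood lowest and the groups overlapped. Azin1 gave −0.21 in Het against WT (SE 0.21, interval −0.69 to 0.26, adjusted p 0.807, edgeR) and 0.027 in KO against WT (interval −0.45 to 0.50, adjusted p 0.9996). In FPKM, Oaz1 exceeded Azin1 by 8.32 to 14.3 times within a library, highest in Het 2, and Odc1 stood at 0.343, 0.420 and 0.557 of Oaz1 in KO, 0.805, 0.538 and 0.816 in Het and 0.297, 0.460 and 0.359 in WT libraries. That ratio was higher in Het 1 and Het 3 than in any KO or WT library.

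The enzymes of back-conversion passed the test in no genotype comparison. Sat1, the spermidine/spermine acetyltransferase that starts polyamine breakdown (X chromosome, 155213132 to 155216449, minus strand), had 136, 120 and 112 CPM in KO, 108, 151 and 88.9 CPM in Het and 135, 110 and 136 CPM in WT libraries. Its groups overlapped throughout, with both the highest and the lowest value in Het libraries, and Het against WT gave −0.13 (SE 0.20, interval −0.57 to 0.31, adjusted p 0.878, edgeR). Smox, spermine oxidase (chromosome 2, 131491496 to 131525922, plus strand), had 37.0, 36.2 and 35.7 CPM in KO, 19.4, 59.6 and 30.3 CPM in Het and 34.5, 25.2 and 46.8 CPM in WT libraries. The KO values nearly coincided while the Het values spanned 3.08 times, so that the means, 36.3 ± 0.650 CPM in KO, 36.4 ± 20.8 CPM in Het and 35.5 ± 10.8 CPM in WT (SD, n = 3 each), were alike with very different spreads. KO against WT gave 0.031 for Smox (interval −0.80 to 0.86, adjusted p 0.9996, edgeR) and Het against WT 0.038 (interval −0.80 to 0.87, adjusted p 0.984).

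Paox, the peroxisomal oxidase of acetylated polyamines (chromosome 7, 140115799 to 140137224, plus strand), was the lowest member, with 10.5, 14.6 and 10.9 CPM in KO, 11.5, 9.97 and 7.01 CPM in Het and 8.68, 11.9 and 12.6 CPM in WT libraries. Its groups overlapped, and Het against WT gave −0.22 (SE 0.29, interval −0.86 to 0.42, adjusted p 0.859, edgeR). Paox overlaps Echs1 on the opposite strand, which reached 95.1 CPM, and the sources used here do not say whether counting used strand, so reads of the overlap cannot be told apart.

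**Figure D3:**
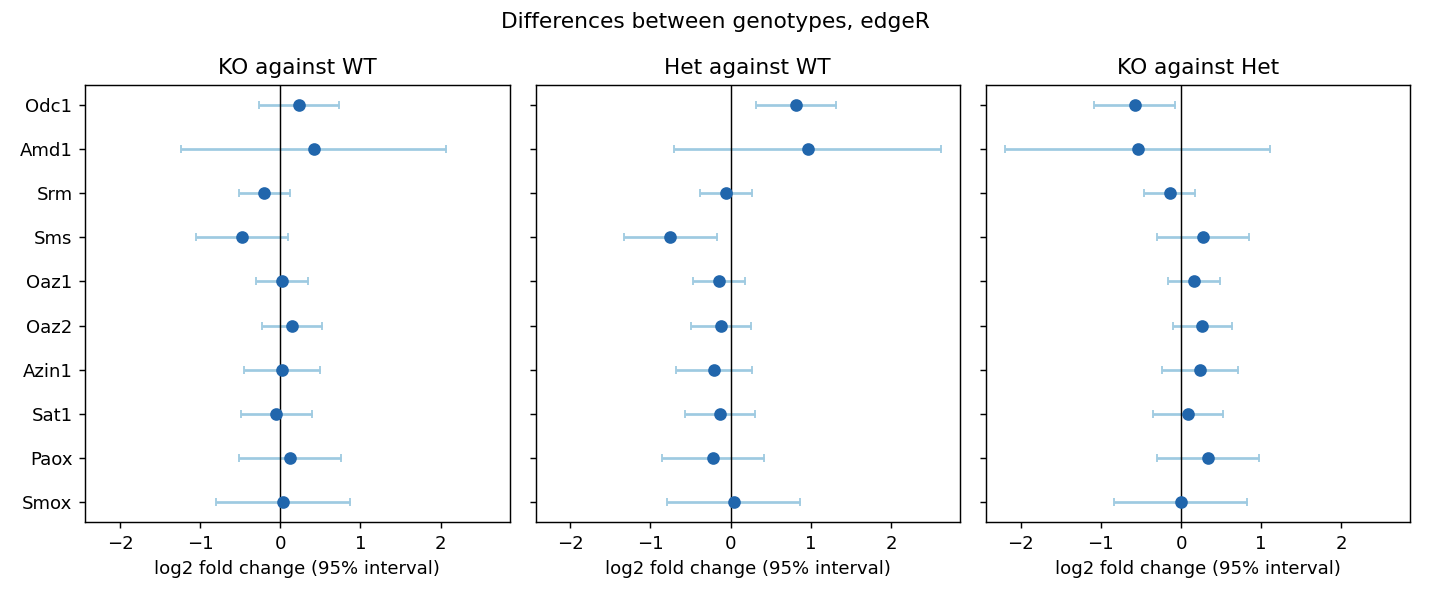
Log2 fold change with 95% interval (edgeR, 9 libraries) of the 10 genes in the 3 genotype comparisons; values right of 0 are higher in the first-named genotype. The intervals of Odc1 and Sms in Het against WT and of Odc1 in KO against Het leave out 0, none passed after adjustment over 16836 genes, and the intervals of Amd1 are the widest.

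Set against Sbp, Amd1 and Odc1, the 2 enzymes that feed the pathway, had the steepest positive slopes of the 10 genes within the 6 libraries high in Sbp, and Smox and Oaz2 the steepest negative ones; none passed the test. The 3 libraries with Sbp under 1000 CPM form a cluster of their own, so they are given as values and no slope or correlation over all 9 is reported. Only the genotype comparisons with Sbp as a covariate, given below, used all 9. Amd1 had 243 to 835 CPM in the 6 libraries with Sbp over 1000 CPM and 122, 167 and 117 CPM in the other 3 (Het 2, WT 1 and WT 3). It was the 1 member of 10 that lay wholly higher in the 6 libraries, as did 3.93% of all genes, and 0 of 10 lay wholly lower (2.1% of all genes). Odc1 had 199 to 397 CPM in the 6 libraries and 241, 151 and 184 CPM in the same 3, with overlap. Smox had 19.4 to 37.0 CPM in the 6 and 59.6, 34.5 and 46.8 CPM in the 3, also with overlap.

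Within the 6 libraries with Sbp over 1000 CPM (KO 1 to 3, Het 1, Het 3 and WT 2), each gene was fitted on log2 CPM of Sbp. Of the 10 members, 0 passed edgeR's quasi-likelihood test (52 of 13115 genes, or 0.396%, did: 34 with a positive slope and 18 with a negative one), and 4 reached an unadjusted p under 0.05 (13.1% of all genes). Odc1 had a slope of 0.47 log2 units per log2 unit of Sbp (SE 0.088, adjusted p 0.0701) and Amd1 one of 0.62 (SE 0.13, adjusted p 0.0880). Oaz2, the antizyme, had a slope of −0.27 (SE 0.084, unadjusted p 0.0109, adjusted p 0.218, edgeR) and Smox one of −0.32 (SE 0.13, unadjusted p 0.0365, adjusted p 0.341, edgeR). The other 6 members had slopes from −0.19 (Sms) to 0.12 (Srm), and 7 of the 10 slopes were negative, with a median of −0.14 beside −0.0016 over all genes.

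Correlations were computed from the same 6 values of each gene, so they restate the slopes and are not a separate test of them. Over 10 relations, one for each member, Pearson's r of log2 CPM with Sbp had an unadjusted p under 0.05 by the two-sided exact permutation test of 720 pairings for 3 members, Odc1 (r 0.966, exact p 0.00833), Amd1 (r 0.890, exact p 0.00417) and Oaz2 (r −0.934, exact p 0.00833). Spearman's rho was 0.886 for Odc1 (exact p 0.0333), 0.943 for Amd1 (exact p 0.0167) and −0.943 for Oaz2 (exact p 0.0167). Sat1 (r −0.754, exact p 0.0694) had a rho of −0.886 (exact p 0.0333), and Smox had r −0.780 (exact p 0.0819) and rho −0.829 (exact p 0.0583). Srm (r 0.662), Sms (−0.415), Oaz1 (−0.557), Paox (−0.496) and Azin1 (−0.067) had exact p-values of 0.154 or more for r. These p-values are not adjusted, and in the fit over 13115 genes above none of the 10 slopes passed.

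The 2 highest Sbp levels belonged to Het 1 and Het 3, so Sbp and the Het genotype cannot be told apart in these 6 libraries. Without these 2, over 4 libraries, r was 0.921 for Odc1 (exact permutation p 0.125), 0.788 for Amd1 (exact permutation p 0.208) and −0.929 for Oaz2 (exact permutation p 0.167), and the smallest p that 4 libraries allow is 0.0417. With Het or not as a second term, Odc1 had a slope of 0.30 (SE 0.25, adjusted p 0.991, edgeR) and Amd1 one of 0.92 (SE 0.37, adjusted p 0.991, edgeR), and 0 genes passed in all, with 462 at an unadjusted p under 0.05. The number of genes passing was 0 without KO 1 or KO 2, 5 without KO 3 or Het 1, 20 without WT 2 and 772 without Het 3. Without Het 3, Odc1 (slope 0.40, adjusted p 0.0282, edgeR) and Amd1 (slope 0.72, adjusted p 0.00787, edgeR) passed. Seminal vesicle markers also moved within these 6, with summed levels of 98680.3, 96152 and 193598 CPM in KO libraries, 6593 and 113319 CPM in Het 1 and Het 3, and 31140.0 CPM in WT 2. The sum of Het 3 was mostly Svs2, at 76065 CPM. Svs1, Svs3a, Svs3b and Svs6 had 2.65, 1.99, 0.993 and 9.27 CPM in Het 3, below every KO library. Fibroblast, endothelial, macrophage, blood and basal markers, each summed over their list, were lowest in Het 1 and Het 3 without overlap. The summed levels were 356 and 527 CPM in Het 1 and Het 3, against 856 to 1026 CPM in the other 4, for fibroblast markers, and 17.7 and 26.5 against 48.6 to 109 CPM for endothelial markers. Macrophage markers summed to 53.8 and 44.1 CPM in Het 1 and Het 3, against 73.2 to 128 CPM in the other 4, and blood markers to 20.8 and 7.62 against 42.9 to 78.7 CPM. Basal markers summed to 133 and 254 CPM in Het 1 and Het 3, against 282 to 576 CPM in the other 4. Smooth muscle markers did not follow this, with 1067 CPM in Het 1 and 6175 CPM in Het 3, against 3789 to 5238 CPM in the other 4. Proximal luminal markers overlapped, with 82.2 CPM in Het 1, 199 CPM in Het 3 and 136 CPM in WT 2. The part of these markers in the slopes was not tested.

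**Figure D4:**
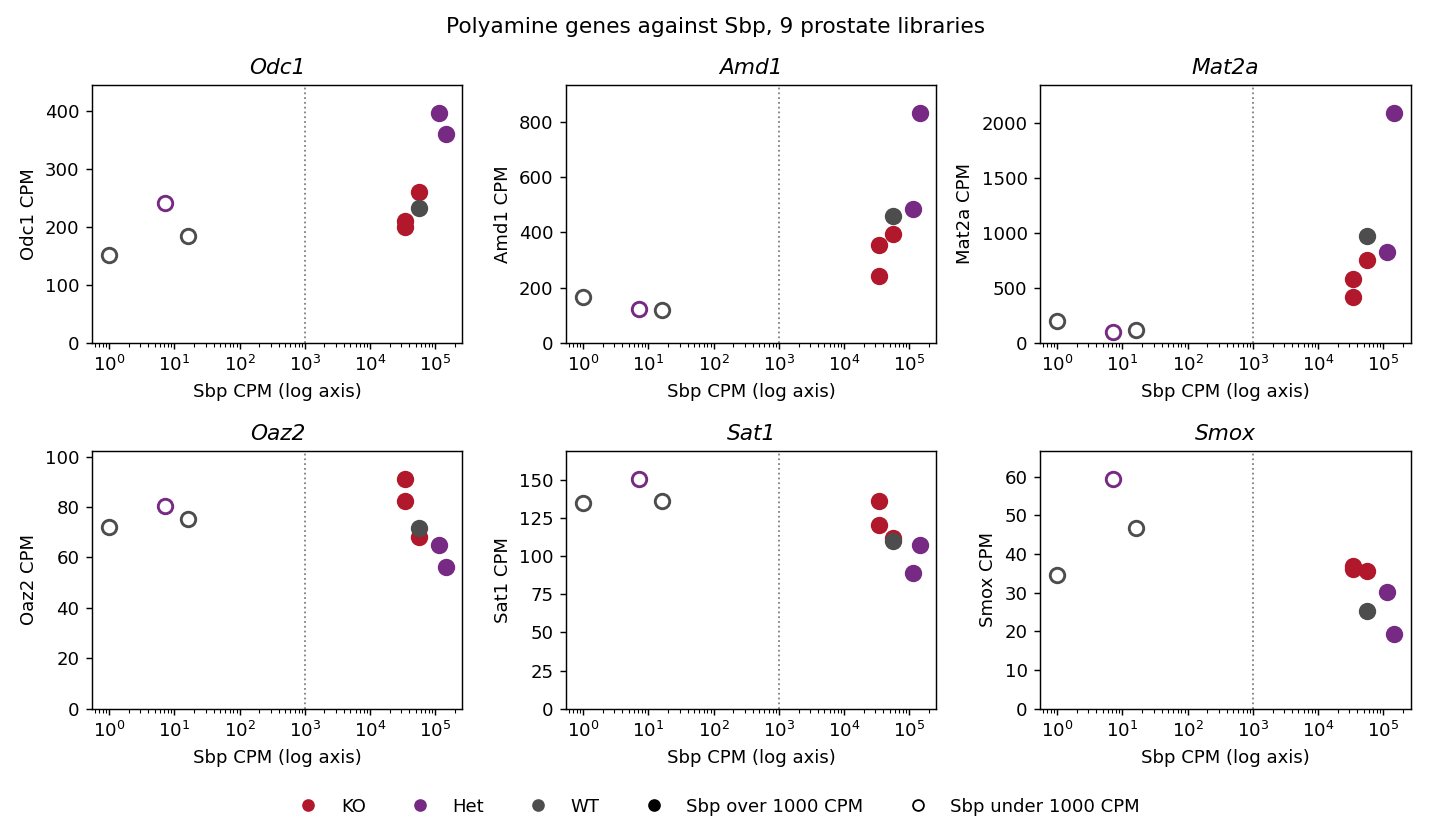
Levels (CPM, linear axes from 0) of Odc1, Amd1, Mat2a, Oaz2, Sat1 and Smox against Sbp (CPM, log axis) in the 9 libraries, coloured by genotype, with open circles left of the dotted line at 1000 CPM. Right of the line, the 2 Het libraries with the most Sbp are the highest for Odc1 and Amd1 and the lowest for Oaz2 and Sat1, while the 3 open circles of Amd1 and Mat2a lie below all filled ones.

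Taking Sbp into the genotype comparison changed the signs or sizes of several members. Log2 CPM of Sbp was 0.13 to 4.01 in Het 2, WT 1 and WT 3 and 15.1 to 17.1 in the other 6 libraries. As a covariate over 9 libraries it therefore mostly contrasts these separate clusters. With log2 CPM of Sbp as a covariate over 9 libraries, Amd1 gave 0.023 in Het against WT (SE 0.38, adjusted p 0.987, edgeR) and −0.60 in KO against WT (SE 0.40, adjusted p 0.924, edgeR), so that the sign of the second turned. Odc1 kept 0.57 in Het against WT (SE 0.16, adjusted p 0.448, edgeR) and −0.68 in KO against Het (SE 0.15, adjusted p 0.559, edgeR), and its KO against WT value turned to −0.11. Sms gave −0.73 in Het against WT (SE 0.29, adjusted p 0.481, edgeR). Smox gave 0.63 in KO against WT (SE 0.28, unadjusted p 0.0479, adjusted p 0.924, edgeR) and 0.32 in KO against Het (SE 0.25, adjusted p 0.876, edgeR). Among the 6 libraries with Sbp over 1000 CPM alone, where WT is the single library WT 2 and is assumed to vary like the other groups, KO against Het gave −0.76 for Odc1 (SE 0.19, adjusted p 0.387, edgeR) and −0.99 for Amd1 (SE 0.30, adjusted p 0.445, edgeR).

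Genes around the core pathway were then read from the same fits. Of 37 other genes of ornithine and arginine supply, methionine supply and salvage, hypusine formation, polyamine transport and remaining turnover, 32 were tested over 9 libraries and 0 passed in any genotype comparison with edgeR. At an unadjusted p under 0.05 there was 1 (Ass1, higher) in KO against WT and 0 in KO against Het. The smallest p-values in KO against WT, also over 3 polyamine-binding or secretory genes and 4 Myc-family genes, were those of Ass1, the argininosuccinate synthase of arginine supply (log2 fold change 0.94, SE 0.40, adjusted p 0.9996), and Max, the partner of Myc (−0.33, SE 0.15, adjusted p 0.9996). In Het against WT, Tgm4, the prostate transglutaminase of the copulatory plug, gave −1.93 (SE 0.90, adjusted p 0.574). In KO against Het they were those of Dhps, which starts the conversion of spermidine into hypusine (0.50, SE 0.25, adjusted p 0.855), and Atp13a4, a transporter-type ATPase (−2.09, SE 1.10, adjusted p 0.875).

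Along Sbp in the 6 libraries, 27 of the 37 genes were tested and 1 passed (0.396% of all genes did), while 4 with a positive and 1 with a negative slope had an unadjusted p under 0.05 (13.1% of all genes). The gene that passed was Adi1, an enzyme of the methionine salvage cycle that recycles the by-product of Srm and Sms, with 89.9, 97.7 and 124 CPM in KO libraries 1 to 3, 250 and 204 CPM in Het 1 and Het 3, and 124 CPM in WT 2. Its slope was 0.68 (SE 0.075, adjusted p 0.0137, edgeR), and in the remaining libraries it had 37.7 CPM in Het 2, 39.0 CPM in WT 1 and 32.8 CPM in WT 3. Sbpl, the neighbouring spermine-binding protein-like gene, passed as well (slope 1.11, SE 0.097, adjusted p 0.00978, edgeR); it shares 39.3% of its 50-base words with Sbp, so reads could be split between them. Sbpl had 40.8, 32.8 and 74.7 CPM in KO libraries, 192, 0 and 129 CPM in Het libraries and 0, 56.9 and 0 CPM in WT libraries, at 0 in the same 3 libraries that were low in Sbp.

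Mat2a, chosen after its values were seen, followed Amd1 closely. It had 420, 584 and 749 CPM in KO libraries 1 to 3, 2095, 102 and 826 CPM in Het libraries and 194, 973 and 118 CPM in WT libraries, with a slope on Sbp of 0.81 (SE 0.18, adjusted p 0.0974, edgeR). Its level per length was 0.658 to 1.98 times that of Amd1, lowest in Het 2 and highest in Het 1. As a description over the 9 libraries, which share depth and the split by Sbp, the Pearson r of log2 CPM with Amd1 was 0.993 for Mat2a, 0.992 for Dach2, 0.988 for Cdkl2, 0.988 for Agtr1a and 0.983 for Trim36, the 5 highest of all genes tested, a list likewise drawn up after values were seen.

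For Odc1 the 5 most similar patterns over the 9 libraries were those of Dhrs7 (r 0.984), Il17re (0.963), Dclk3 (0.949), Pls1 (0.948) and Fbxo32 (0.944). Dhrs7, a short-chain dehydrogenase, had 56.2, 56.3 and 66.9 CPM in KO, 85.2, 62.3 and 83.1 CPM in Het and 48.8, 64.7 and 51.4 CPM in WT libraries, highest in Het 1 and Het 3 as Odc1 was. For Sat1 they were those of Dnmbp (r 0.952), Zfp970 (0.951), Tyw3 (0.946), Ica1 (0.945) and Adgra3 (0.945), again as a description. Dnmbp had 45.7, 41.9 and 42.8 CPM in KO, 41.6, 52.3 and 33.3 CPM in Het and 44.7, 40.4 and 45.7 CPM in WT libraries, with its extremes in Het 2 and Het 3 like those of Sat1.

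Of the ratios computed within a library for chosen pairs of genes, that of Amd1 to Smox, the spermine oxidase, varied most. Amd1 over Smox, as a ratio of FPKM, was 7.21, 10.8 and 12.2 in KO libraries 1 to 3, 47.5, 2.25 and 17.7 in Het libraries and 5.33, 20.0 and 2.75 in WT libraries. The 3 lowest ratios were those of the libraries low in Sbp, and the highest was that of Het 1, where Sbp was highest. Smox over Paox, the 2 oxidases, ran from 2.12 in Het 1 to 7.53 in Het 2.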

How the data were processed

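Polyadenylated RNA of prostate tissue was made into cDNA libraries with inserts of 250 to 300 bp, per the labels' protocols. The authors deposited unnormalised whole-number counts for each gene, and FPKM values, in which counts are scaled by library size and gene length. Coordinates follow GRCm38 (mm10), as named in the submitters' processing notes. The sources used here name no aligner or counting tool and no strand setting. Genotype was taken from the library names. Here, counts were scaled to CPM with TMM factors and filtered with filterByExpr (16836 genes kept), and edgeR's quasi-likelihood test was fitted over all 9 libraries with Benjamini-Hochberg adjustment over all genes tested. The slope on log2 CPM of Sbp used the 6 libraries with Sbp over 1000 CPM (13115 genes); correlations in these 6 have exact permutation p-values, left unadjusted. FPKM served for levels per length. The tests were checked on simulated counts with the same spread for every gene and no differences in tissue between libraries. That check therefore does not give error rates for these data. Alternatives were other scalings, filters, DESeq2, limma voom, covariates and leaving out libraries. The members, lists and tests were chosen with earlier results of these data known. Named beyond the members were Sbp, Srd5a2, listed polyamine genes that passed or else the 2 with the smallest p per comparison, and the 5 genes most like Odc1 and Sat1; 1 gene that this rule names is not reported here. Mat2a and the genes most like Amd1, the near copy Amd2, the overlapping Echs1 and the tissue marker Pbsn were added after values were seen. Versions were R 4.3.3, edgeR 4.0.16, limma 3.58.1, DESeq2 1.42.0, Python 3.11.15 and scipy 1.17.1.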

Additional observations from a re-analysis of the deposited data

How the results depend on the processing

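No paired analysis was possible because replicate numbers follow accession order and pair nothing. With 3 libraries a genotype, small differences may go undetected, and bulk levels depend on which tissue each library holds. No member passed a genotype comparison under any alternative run. All values below are log2 fold changes or slopes of members that did not pass, nearly all with a sign that turned, or numbers of genes passing; the cause was not tested. DESeq2 called 14 genes in KO against WT, 205 in Het against WT and 169 in KO against Het, where edgeR called 0. With a seminal vesicle score as covariate, 274 genes passed in Het against WT and 54 in KO against Het, and the values were −0.45 for Smox in KO against WT, −0.24 for Amd1 and 0.0037 for Oaz2 in Het against WT, and 1.49 for Amd1, 0.10 for Srm and −0.13 for Sat1 in KO against Het. With a skeletal muscle score as covariate, KO against WT gave 0.051 for Srm, −0.23 for Paox and −0.31 for Smox, and KO against Het gave 0.40 for Amd1, 0.18 for Srm and −0.13 for Paox. With Sbp as covariate, KO against WT gave −0.11 for Odc1, −0.60 for Amd1, 0.24 for Sat1 and −0.17 for Azin1, Het against WT gave 0.025 for Sat1, and KO against Het gave 0.32 for Smox. Without the 3 libraries low in Sbp, 1 gene passed in Het against WT and 1 in KO against Het, KO against WT gave −0.063 for Odc1, −0.47 for Amd1, 0.16 for Sat1 and −0.00087 for Azin1, and Smox gave −0.028 in Het against WT and 0.55 in KO against Het. With limma voom, Smox gave −0.033 in Het against WT and 0.12 in KO against Het. With no filter on low counts, Smox gave 0.0052 in KO against Het, where 2 genes passed.

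Leaving out each library in turn, the number of genes passing ran from 0 to 1 in KO against WT, from 0 to 258 in Het against WT and from 0 to 18 in KO against Het, the highest each time without Het 1, and from 0 to 772 for the slope on Sbp. In KO against WT the ranges were 0.074 to 1.27 for Amd1, −0.13 to 0.0073 for Sat1, −0.12 to 0.17 for Azin1, −0.12 to 0.087 for Oaz1, −0.054 to 0.22 for Paox and −0.12 to 0.28 for Smox. In Het against WT they were 0.29 to 1.82 for Amd1, −0.16 to 0.078 for Srm, −0.38 to 0.023 for Sat1 and −0.53 to 0.34 for Smox. In KO against Het they were −1.02 to 0.12 for Amd1, −0.071 to 0.31 for Sat1 and −0.31 to 0.54 for Smox. The slope on Sbp ran from −0.022 to 0.0085 for Azin1. With at least 1 CPM in 3 libraries, 23 genes passed for the slope and Azin1 gave 0.0034; with Het or not as a covariate, an alternative chosen after seeing the data, 0 genes passed, Azin1 gave 0.090 and Paox 0.058. Of 10 correlations with Sbp, 3 had an unadjusted exact permutation p under 0.05 over 6 libraries and 0 over the 4 left without Het 1 and Het 3, where the smallest possible p is 0.0417, so that the p-values of 4 libraries say little; r was then 0.921 for Odc1, 0.788 for Amd1 and −0.929 for Oaz2.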
